A study of Mus musculus with 20 samples.

Results

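Genes of iron handling, 10 of the 55487 gene identifiers in the count table, were followed in the liver RNA of 20 mice. They were matched by symbol, and each symbol matched 1 identifier: the hepcidin genes Hamp and Hamp2, the BMP ligand Bmp6, the BMP-responsive genes Id1 and Smad7, the uptake genes Tfrc and Trf, the iron exporter Slc40a1, and the ferritin chains Fth1 and Ftl1. All mice were female C57BL/6J, entered at 8 weeks of age, and were killed at 28 weeks. The chow-fed mice (n = 5) received chow throughout. The other 15 mice received a high-fat diet (HFD) for 10 weeks and then, for another 10 weeks, an isocaloric HFD in which 50% of the protein came from fishmeal of salmon by-products (n = 5), salmon filet (n = 5) or beef (n = 5). No HFD group without a test protein source was analysed here, so that the fat content of the diet and the source of its protein cannot be told apart against chow. Beef carries haem iron, whereas the study lists more iron by weight in the fishmeal powder than in beef and the least in salmon filet. Of these values the study measured only that of fishmeal, and took those of salmon filet and beef from a food database. Iron in the diets, in blood or in liver was not analysed here.

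One mouse, number 31, is beef by the ending of its count column and salmon filet by its sample label. The column ending was used for the groups above and makes 5 salmon filet and 5 beef mice. The study describes sequenced diet groups of equal size, which the column ending gives and the sample label does not. As a check, results on salmon filet or beef are also given with the sample label, which makes 6 salmon filet and 4 beef mice. Each library held between 42526234 and 70266136 reads assigned to genes. In 19 libraries 93.16% to 95.56% of counts fell on protein-coding genes, against 84.34% in mouse 35, a beef-fed mouse that stood apart, so beef results are also given without it. The 5 hepatocyte markers Alb, Apoa1, Ttr, Cps1 and Hnf4a were present in every library, at a summed level of 83582 to 115186 CPM (read counts scaled to 1e+06 reads per library), in keeping with the tissue label.

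Hepcidin, the peptide made by hepatocytes from Hamp, binds ferroportin, the exporter encoded by Slc40a1, and causes its removal from the cell surface, which keeps iron inside macrophages, enterocytes and hepatocytes. The sinusoidal endothelial cells of the liver release BMP6 when iron is high, and BMP receptors on hepatocytes then act through SMAD proteins to switch on hepcidin together with targets such as Id1 and the feedback inhibitor Smad7, while inflammation acts on hepcidin through STAT3. Ferritin, ferroportin and the transferrin receptor are controlled mainly after transcription, by iron regulatory proteins that bind hairpins in their messages.

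The levels of the 10 transcripts spanned several orders of magnitude. On the per-length scale of TPM (transcript abundances that add to 1e+06 in a library), Trf, which encodes the plasma iron carrier transferrin, had the highest median level over the 20 libraries, at 11616 TPM. The ferritin light chain Ftl1 followed with a median of 3518 TPM, Hamp with 2600 TPM, Hamp2 with 1059 TPM and the ferritin heavy chain Fth1 with 391 TPM. Slc40a1 had a median of 39.1 TPM. The lowest medians were those of Tfrc at 8.37, Smad7 at 7.41, Id1 at 4.79 and Bmp6 at 1.84 TPM. The ranges of Hamp (489 to 3953 TPM) and Ftl1 (2088 to 4536 TPM) overlapped, as did those of Hamp and Hamp2 (339 to 2755 TPM) and of Smad7 (4.61 to 12.1 TPM) and Tfrc (4.18 to 17.3 TPM), and neighbours with overlapping ranges cannot be ranked beyond their spread. The spread between mice also differed. The highest CPM of Hamp was 9.97 times its lowest, and that of Hamp2 8.12 times its lowest, against 1.497 times for Trf. Even Id1 and Bmp6, the least abundant, had at least 44 and 110 reads in each library.

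**Figure D1:**
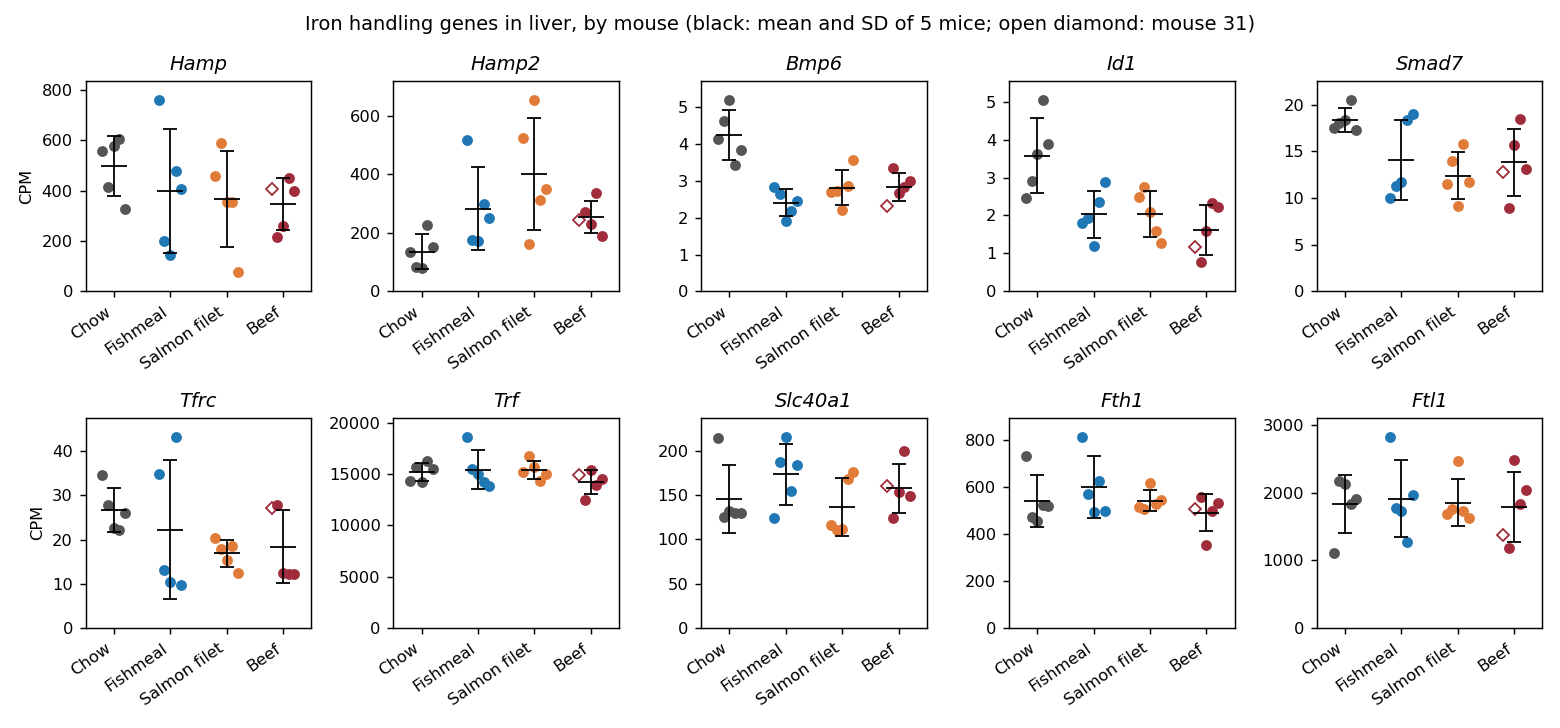
CPM of the 10 genes (vertical axes from 0) in each of the 20 mice, by diet group, with the mean and SD of 5 mice in black and mouse 31 as an open diamond in the beef group. The Bmp6 level of the 5 chow-fed mice lay between 3.43 and 5.20 CPM and that of the 15 HFD mice between 1.92 and 3.57 CPM, whereas Hamp spread from 76.1 to 759 CPM with no separation of the groups.

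The first comparison asked how the iron genes of HFD mice as a whole differed from those of chow-fed mice. With the HFD, Bmp6 and Id1 fell and Hamp2 rose, while Hamp itself did not pass the test. Thus 3 of the 10 genes were called at an adjusted p under 0.05 (edgeR quasi-likelihood test, Benjamini-Hochberg over 17120 genes), where 9.75% of all genes tested were called. In direction, 2 members were lower, against 5.21% of all genes, and 1 was higher, against 4.54%. The members were chosen with earlier results of these data known, so these shares are a description and not a test. The median log2 fold change of the 10 was -0.22, and that of all genes tested 0.00. No member had HFD and chow values that did not overlap, as 1.58% of all genes tested had.

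Bmp6, the iron-responsive BMP ligand, was measured at 4.15, 4.64, 5.20, 3.43 and 3.85 CPM in the chow-fed mice. The fishmeal mice had 2.84, 2.66, 1.92, 2.19 and 2.45 CPM. Salmon filet mice had 2.71, 2.74, 2.22, 2.86 and 3.57 CPM, and beef mice 2.32, 3.36, 2.67, 2.84 and 2.99 CPM. All 15 HFD mice were below the chow mean and 14 were below the lowest chow-fed mouse, the exception being the salmon filet mouse 27. The log2 fold change of HFD versus chow was -0.67 (SE 0.12, 95% interval -0.92 to -0.42), or 36.9% less RNA, with an adjusted p of 0.00109 in edgeR. This call held when any 1 of the 20 mice was left out, with an edgeR adjusted p of at most 0.00671. In bulk liver, fewer cells of a type and less RNA per cell cannot be told apart. Of 8 markers of liver sinusoidal endothelial cells, the main source of BMP6 in liver, 2 fell, Clec4g by 0.29 and Fcgr2b by 0.34 on the log2 scale (edgeR adjusted p = 0.00758 and 0.011), and none rose, where 5.21% of all genes tested were lower. Fcgr2b lost its call without mouse 1 (edgeR adjusted p = 0.0762), and both lost it with a score of clock genes as covariate (edgeR adjusted p = 0.0841 and 0.398). The median log2 fold change of these 8 markers was -0.25, none was at 0 in any library, and their summed level was 273 to 310 CPM in chow-fed and 212 to 310 CPM in HFD mice; their part in the Bmp6 result was not tested.

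Bmp6 (chromosome 13, 38345107 to 38500302, plus strand of GRCm38) overlaps Txndc5 on the other strand, and 224 bases of their transcripts are complementary. Txndc5 is far more abundant, at 109.6 to 194 CPM, and the strand setting of the counting is not given in the sources used here. Txndc5 had a log2 fold change of 0.06 (SE 0.10) for HFD versus chow, with an adjusted p of 0.769 in edgeR, and over the 20 mice its deviations from the group means had a Pearson r of 0.26 with those of Bmp6.

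Id1, a transcriptional regulator that BMP signalling induces, was measured at 2.46, 2.90, 3.62, 5.04 and 3.89 CPM in the chow-fed mice. The fishmeal mice had 1.79, 1.93, 1.19, 2.35 and 2.87 CPM. Salmon filet mice had 2.49, 2.74, 2.09, 1.60 and 1.3 CPM, and beef mice 1.159, 0.777, 1.60, 2.32 and 2.22 CPM. All 15 HFD mice were below the chow mean, and 12 were below the lowest chow-fed mouse. The log2 fold change was -0.92 (SE 0.22, 95% interval -1.37 to -0.47), or 47.2% less RNA, with an edgeR adjusted p of 0.00898. Without the chow-fed mouse 7, which had the highest level, the edgeR adjusted p was 0.0547 and the log2 fold change -0.77.

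Smad7, the inhibitory SMAD that BMP signals induce in turn, ranged from 17.3 to 20.5 CPM in the chow-fed mice and from 8.94 to 19.0 CPM, with a median of 12.8 CPM, in the HFD mice. Among the HFD mice 12 of 15 were below the lowest chow-fed mouse, whereas 3 were above the chow mean. Its log2 fold change was -0.45 (SE 0.15), with an edgeR adjusted p of 0.055, which missed the threshold. DESeq2 and limma called it (adjusted p = 0.0451 and 0.0466), and in edgeR it passed without mouse 16, 20 or 39 (edgeR adjusted p = 0.0297, 0.0315 and 0.0352).

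Hamp and Hamp2 are neighbouring genes of 1 cluster on chromosome 7, both on the minus strand, at 30942368 to 30944032 and 30922372 to 30924681 of GRCm38. Mice carry both, and iron regulation is established for the product of Hamp, whereas that of Hamp2 does not lower blood iron. The longest transcripts of the 2 genes shared 93.0% of 417 aligned bases, and the handling of reads that fit several genes is not given in the sources used here, so reads may have been split between the genes or lost. A lincRNA gene, Gm44662, overlaps both on the other strand. The 150 bases before the RefSeq start of each gene are shown. That of Hamp holds the letters that BMP and STAT factors are known to read in hepcidin genes, and that of Hamp2 is set beside it. The stretches are RefSeq promoter sequences of build GRCm38.p6, chr7:30944030-30944179 for Hamp and chr7:30924182-30924331 for Hamp2, both from the minus strand. The RefSeq starts are 30944029 for Hamp and 30924181 for Hamp2, and the GENCODE genes begin further upstream, so that the Hamp2 stretch and the last 3 bases of the Hamp stretch lie inside the GENCODE genes. Capitals mark, from left to right, GGCGCC (the core of the BMP-responsive element), TTCTTGGAA (the STAT element) and TGAGTCA (the AP-1 motif).
Hamp: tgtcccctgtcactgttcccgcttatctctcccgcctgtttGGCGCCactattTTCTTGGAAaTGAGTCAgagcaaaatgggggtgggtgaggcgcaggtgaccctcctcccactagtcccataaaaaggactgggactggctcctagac
Hamp2: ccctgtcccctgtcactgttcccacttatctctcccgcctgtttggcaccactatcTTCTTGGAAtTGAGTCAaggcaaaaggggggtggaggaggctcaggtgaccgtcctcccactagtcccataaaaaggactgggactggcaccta
Over 147 aligned bases the stretches were 91.8% identical, with 12 substitutions. Counted from 1 at the 5′ end of the Hamp stretch, the substitution G45A lies in the GGCGCC letters, which begin at base 42 of the Hamp stretch, so that Hamp2 lacks GGCGCC while it keeps both TTCTTGGAA and TGAGTCA. Searched on both strands, GGCGCC was in 11.9% of 32851 promoter windows of 300 bases, TTCTTGGAA in 0.417% and TGAGTCA in 5.2%. Of the 6 members with a window in that table, Tfrc also held GGCGCC. A match describes letters, not a bound site, and whether these letters bear on the RNA level of either gene was not tested.

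Hamp was measured at 557, 415, 578, 605 and 327 CPM in the chow-fed mice. The fishmeal mice had 759, 198, 145, 479 and 405 CPM. Salmon filet mice had 459, 588, 354, 354 and 76.1 CPM, and beef mice 405, 215, 261, 451 and 399 CPM. The HFD mice included both the highest level, in the fishmeal mouse 12, and the lowest, in the salmon filet mouse 27, and 13 of 15 were below the chow mean. The log2 fold change was -0.43 (SE 0.32, 95% interval -1.09 to 0.23), with an edgeR adjusted p of 0.444. The coefficient of variation was 47.5% in the HFD mice and 24.1% in the chow-fed mice.

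Hamp2 was measured at 133, 84.8, 80.4, 226 and 152 CPM in the chow-fed mice. The fishmeal mice had 515, 175, 170.5, 299.8 and 248.9 CPM. Salmon filet mice had 525, 160.0, 653, 314 and 350.4 CPM, and beef mice 243, 270.5, 229, 335 and 188 CPM. All 15 HFD mice were above the chow mean, and 11 were above the highest chow-fed mouse. Hamp2 rose 2.30-fold (log2 fold change 1.201, SE 0.32, 95% interval 0.54 to 1.86), with an edgeR adjusted p of 0.0181. Without mouse 2 or mouse 5, the chow-fed mice with the lowest levels, the edgeR adjusted p was 0.0653 and 0.0534.

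The balance of the pair therefore differed between mice. The CPM of Hamp2 divided by that of Hamp was 0.139 to 0.465 in the chow-fed mice, with a median of 0.239, and 0.272 to 4.60 in the HFD mice, with a median of 0.878. Mouse 27, with the lowest Hamp, had the highest ratio, at 4.60, since its Hamp2 level of 350.4 CPM was near the middle of its group. With the counts of both genes summed before the fit, the log2 fold change of the sum was 0.11 (SE 0.24), with an edgeR adjusted p of 0.839. Counted apart, the pair had estimates of opposite sign.

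**Figure D2:**
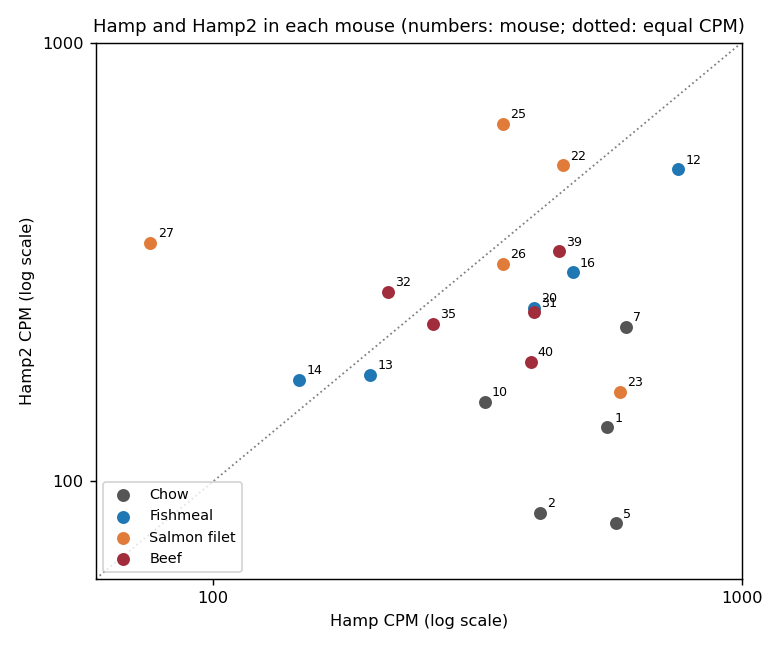
Hamp CPM (horizontal, log scale) against Hamp2 CPM (vertical, log scale) in each of the 20 mice, coloured by diet group and marked with the mouse number, with a dotted line at equal CPM. The 5 chow-fed mice lie below the line, with ratios of Hamp2 to Hamp of 0.139 to 0.465, the salmon filet mouse 23 lies among them at 0.272, and mouse 27 lies furthest above the line, with a ratio of 4.60.

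Tfrc, Slc40a1, Fth1 and Ftl1 carry iron-responsive elements, the hairpins that iron regulatory proteins bind when iron is low: in a 5′ UTR they block translation, and in the 3′ UTR of Tfrc they protect the message. The elements are shown because they are what makes the RNA level of Tfrc an iron readout of its own, and because RNA levels of the other 3 genes do not show their control by translation. The search looked for a C, 5 bases, the loop CAGTG with A, C or T after it, and 5 bases that pair with the first 5, on the sense strand of GENCODE M21 transcripts (GRCm38). Capitals mark the 6 loop bases, and each line holds 30 bases.
Fth1, 5′ UTR, chr19:9982731-9982760, plus strand: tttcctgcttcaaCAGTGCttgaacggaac
Ftl1, 5′ UTR, chr7:45459779-45459808, minus strand: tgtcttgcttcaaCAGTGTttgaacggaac
Slc40a1, 5′ UTR, chr1:45925465-45925494, minus strand: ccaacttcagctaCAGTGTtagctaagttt
Tfrc, 3′ UTR, chr16:32631218-32631247, plus strand: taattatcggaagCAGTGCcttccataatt
Tfrc, 3′ UTR, chr16:32631597-32631626, plus strand: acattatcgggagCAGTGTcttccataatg
Tfrc, 3′ UTR, chr16:32631662-32631691, plus strand: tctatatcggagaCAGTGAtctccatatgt
Tfrc, 3′ UTR, chr16:32631709-32631738, plus strand: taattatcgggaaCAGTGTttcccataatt
Of 21899 protein-coding genes, 21 (0.0959%) had such letters in a 5′ UTR and 98 (0.448%) in a 3′ UTR.

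Tfrc, the transferrin receptor through which cells take up iron, was measured at 34.7, 27.9, 22.6, 22.3 and 26.0 CPM in the chow-fed mice. The fishmeal mice had 34.8, 13.0, 10.4, 43.3 and 9.66 CPM. Salmon filet mice had 20.4, 17.9, 15.3, 18.5 and 12.4 CPM, and beef mice 27.3, 27.8, 12.5, 12.2 and 12.2 CPM. Among the HFD mice 11 of 15 were below the lowest chow-fed mouse, but 2 fishmeal mice (12 and 16) were above the highest, so that the fishmeal group held both extremes. For HFD versus chow the log2 fold change was -0.48 (SE 0.28), with an edgeR adjusted p of 0.313.

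Slc40a1, the only known iron exporter, ranged from 125 to 214 CPM in the chow-fed mice and from 111 to 216 CPM in the HFD mice. Its log2 fold change was 0.09 (SE 0.16, 95% interval -0.23 to 0.41), with an edgeR adjusted p of 0.781. Fth1 ranged from 456 to 729 CPM with chow and 355 to 812 CPM with HFD, and its log2 fold change was 0.01 (SE 0.13, 95% interval -0.27 to 0.28). For Ftl1 the ranges were 1110.1 to 2179 and 1191 to 2829 CPM, and the log2 fold change was 0.01 (SE 0.17, 95% interval -0.34 to 0.37). Trf ranged from 14229 to 16256 and from 12425 to 18606 CPM, and its log2 fold change was -0.02 (SE 0.09, 95% interval -0.20 to 0.16). None of these 4 passed the test, and the groups overlapped for each. The intervals of Trf and Fth1 leave room for a change of at most 1.21-fold up, and to 0.870 of the chow level down for Trf and 0.831 for Fth1. Ftl1 has near-identical processed copies, of which Ftl1-ps1 (99.6% over 910 bases) took most counts, at 0.32% of those of Ftl1. Fth1 had 1 such copy, at 0.0072% of its counts. Gm20425, which overlaps Trf on the same strand and shares 98.0% of 2150 bases with it, had no row in the count table.

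**Figure D3:**
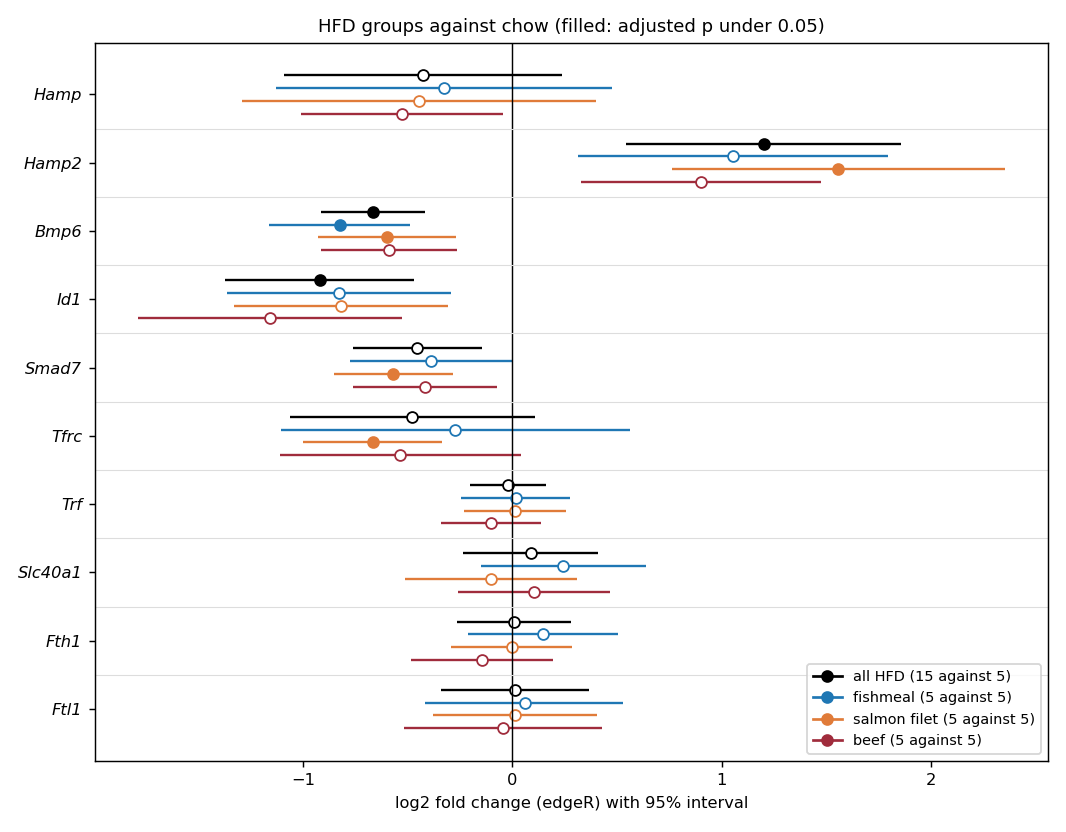
Log2 fold changes (horizontal) with 95% intervals of the 10 genes for all HFD mice and for each HFD group against chow, from edgeR, with filled circles at an adjusted p under 0.05. Bmp6, Id1 and Smad7 lie left of 0 and Hamp2 right of 0 in each comparison, and the estimates of Trf, Fth1 and Ftl1 lie within 0.15 of 0.

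Libraries of HFD and chow-fed mice also differed in clock genes, which cycle over the day in liver. A clock score (mean log2 CPM of Arntl, Npas2 and Clock minus that of Dbp, Nr1d1, Nr1d2, Tef and Per3) ranged from 0.278 to 2.61 in the chow-fed mice and from -4.64 to 1.52 in the HFD mice. With this score as a covariate, Id1 alone of the 10 genes was called in edgeR, with a log2 fold change of -1.19 (SE 0.30) and an adjusted p of 0.0473. Bmp6 kept nearly the same estimate, -0.65 (SE 0.17), with an edgeR adjusted p of 0.0557. Hamp2 also kept its estimate, 1.33 (SE 0.41), with an edgeR adjusted p of 0.12. The estimate of Tfrc turned to 0.31 (SE 0.29, edgeR adjusted p = 0.762). Without the score the SE was 0.12 for Bmp6 and 0.32 for Hamp2. The share of all genes called in this fit is not given here, so the lost calls cannot be read as particular to these genes. Of the HFD mice only 22 and 31, at 0.524 and 1.52, had scores within the chow range, so the score largely followed the diet. In each fit against chow with this score, diet and clock can therefore hardly be told apart. A call lost with the score does not separate the 2. What part the clock has in these results was not tested beyond this fit.

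**Figure D4:**
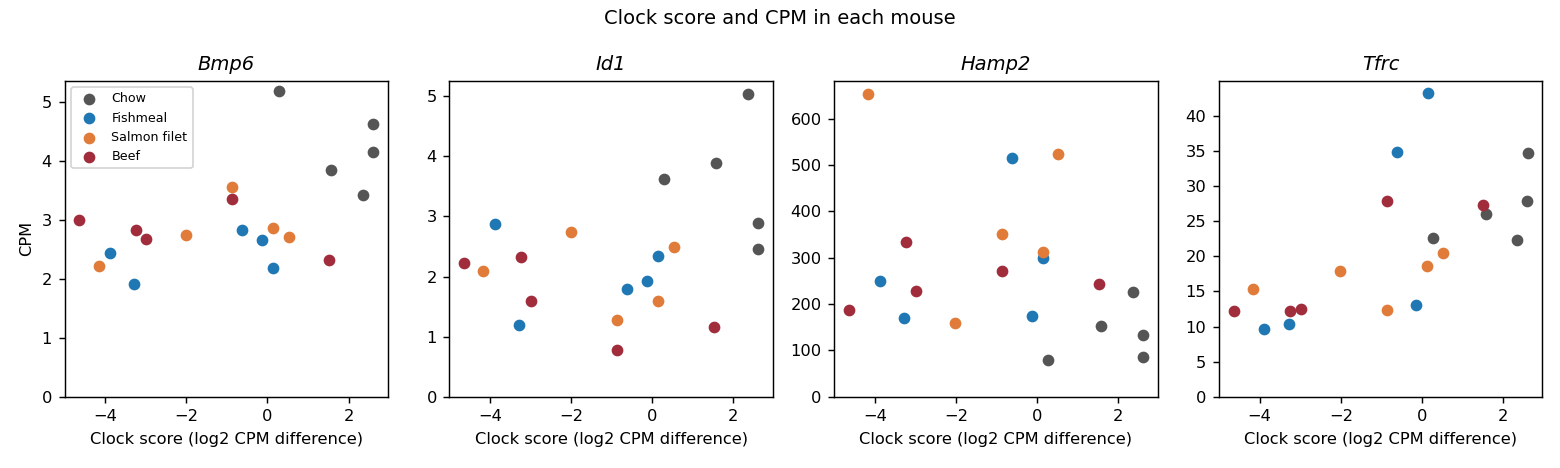
Clock score (horizontal, a difference of log2 CPM) against the CPM of Bmp6, Id1, Hamp2 and Tfrc (vertical, from 0) in each of the 20 mice, coloured by diet group. The 5 chow-fed mice lie at a score of 0.278 or more, and the low levels of Tfrc, down to 9.66 CPM, are in HFD mice with scores below 0.

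The next comparisons set each HFD group against the same 5 chow-fed mice, so their results share these controls. Fishmeal versus chow called 1 member, Bmp6, which was lower, where 3.38% of all genes tested were called. Its log2 fold change was -0.82 (SE 0.15), with an edgeR adjusted p of 0.0122, and the 2 groups did not overlap, as for 5.91% of all genes tested. The call held when any 1 of the 10 mice was left out (edgeR adjusted p at most 0.0408), but not with the clock score (edgeR adjusted p = 0.379). With that score the estimate was -0.81, with an SE of 0.26. Every fishmeal mouse had a lower score (-3.88 to 0.14) than every chow-fed mouse (0.278 or more). Score and diet can hardly be told apart here. Hamp2 (log2 fold change 1.05, SE 0.34, edgeR adjusted p = 0.122) and Id1 (-0.83, SE 0.25, edgeR adjusted p = 0.0938) did not pass. Of the 8 endothelial markers, Clec4g (-0.371) and Fcgr2b (-0.415) were also lower for fishmeal, and 0 were higher (edgeR adjusted p = 0.0316 and 0.0487). They passed in 3 and 0 of 10 fits that left out a mouse, and the median of the 8 was -0.295. Their part in the Bmp6 result was not tested. Salmon filet called 0 of the 8 and beef only Clec4g, in 0 of 10 such fits.

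Salmon filet versus chow called 4 members, where 4.42% of all genes tested were called. Hamp2 rose 2.94-fold (log2 fold change 1.56, SE 0.37, edgeR adjusted p = 0.0366). Bmp6 fell by 0.60 (SE 0.15), Smad7 by 0.57 (SE 0.13) and Tfrc by 0.67 (SE 0.15) on the log2 scale, with edgeR adjusted p of 0.0459, 0.0339 and 0.0339. For Smad7 and Tfrc all 5 salmon filet mice were below all 5 chow-fed mice, a separation that 8.28% of all genes tested had. Id1 had a log2 fold change of -0.82 (SE 0.23), with an edgeR adjusted p of 0.0684. By sample label, with mouse 31 among 6 salmon filet mice, 4 members were also called, against 4.46% of all genes tested. These were Hamp2, Bmp6, Smad7 and Id1 (edgeR adjusted p = 0.0381, 0.0289, 0.0229 and 0.049), whereas Tfrc had an edgeR adjusted p of 0.11, with mouse 31 at 27.3 CPM. None of the 4 calls held for every mouse left out: Hamp2 passed without mouse 7 or 23 only, Bmp6 without mouse 27 only, Smad7 without mouse 1, 10, 23 or 26, and Tfrc without mouse 5, 10 or 22. The edgeR adjusted p reached 0.0942 for Hamp2, 0.113 for Bmp6, 0.0811 for Smad7 and 0.091 for Tfrc. With the clock score none of the 4 passed. The estimates were then 1.45 for Hamp2 (SE 0.56), -0.51 for Bmp6 (SE 0.24), -0.31 for Smad7 (SE 0.18) and -0.39 for Tfrc (SE 0.22). The log2 fold change of Hamp was -0.45 here (SE 0.39, edgeR adjusted p = 0.509), beside -0.33 for fishmeal (SE 0.37, edgeR adjusted p = 0.735).

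Beef versus chow called 0 of the 10 members in edgeR, where 3.05% of all genes tested were called. At an unadjusted p under 0.05 there were 5, against 18.4% of all genes. DESeq2 called 3 (Hamp2, Bmp6 and Id1), against 6.42% of the genes it tested, and limma called 1 (Id1), against 2.08%. The estimates were a log2 fold change of -1.16 for Id1 (SE 0.29, edgeR adjusted p = 0.0523), -0.59 for Bmp6 (SE 0.15, edgeR adjusted p = 0.0554) and 0.90 for Hamp2 (SE 0.26, edgeR adjusted p = 0.0902). Neither Bmp6 nor Id1 overlapped between the groups, as 6.16% of all genes tested did not. Without mouse 7 Hamp2 passed (edgeR adjusted p = 0.0352), and without mouse 32 Bmp6 did (edgeR adjusted p = 0.0478). Without mouse 35 the log2 fold changes were -1.15, -0.56 and 0.94 for Id1, Bmp6 and Hamp2, with edgeR adjusted p of 0.0873, 0.0998 and 0.115. By sample label, with 4 beef mice, again 0 members were called, against 2.48% of all genes tested. Hamp had a log2 fold change of -0.53 (SE 0.22, 95% interval -1.01 to -0.04, edgeR adjusted p = 0.23), the estimate for Fth1 was -0.15 (SE 0.16) and that for Slc40a1 0.11 (SE 0.17).

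Whether the protein sources differed from one another was asked in the HFD mice alone, with beef as the source of haem iron. No member passed the test. Fishmeal versus salmon filet called 0 of the 10 in edgeR, against 0.17% of all genes tested, fishmeal versus beef 0, against 0.0245%, salmon filet versus beef 0, against 0%, and beef versus the other HFD groups 0, against 0%. At an unadjusted p under 0.05 there were 0 in each comparison with edgeR and limma, where edgeR had 5.16%, 2.59%, 4.91% and 3.02% of all genes in the same order. DESeq2 called 0 in each as well, with 1 at an unadjusted p under 0.05, in salmon filet versus beef. Hamp2 was the nearest to a difference, with 525, 160.0, 653, 314 and 350.4 CPM in salmon filet mice against 188 to 335 CPM in beef mice. Its log2 fold change for salmon filet versus beef was 0.66 (SE 0.30, 95% interval -0.001 to 1.313), with an edgeR adjusted p of 0.922. By sample label it was 0.55 (unadjusted p = 0.124 in edgeR), and without mouse 35 it was 0.61 (unadjusted p = 0.0963 in edgeR). For fishmeal versus salmon filet the log2 fold change of Slc40a1 was 0.34 (95% interval -0.04 to 0.73, unadjusted p = 0.0777 in edgeR). That of Hamp2 was -0.51 (-1.31 to 0.29), and both genes had an edgeR adjusted p of 0.92. By sample label these estimates were 0.31 and -0.39.

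For beef versus the other 10 HFD mice, the log2 fold change of Hamp was -0.14, with a 95% interval of -0.95 to 0.66. The interval for Hamp2 was -1.07 to 0.21, that for Id1 -0.87 to 0.20 and that for Tfrc -0.80 to 0.64, all of them including 0. The intervals were narrower for the other members. Fth1 had a log2 fold change of -0.22 (95% interval -0.49 to 0.05), Ftl1 of -0.08 (-0.46 to 0.31) and Slc40a1 of 0.02 (-0.32 to 0.37). That of Trf was -0.11 (-0.33 to 0.10), that of Bmp6 0.12 (-0.17 to 0.41) and that of Smad7 0.06 (-0.32 to 0.45). Without mouse 35, which had the lowest Fth1 level (355 CPM) and the highest Ftl1 level of the beef mice (2491 CPM), these were -0.12 for Fth1 and -0.22 for Ftl1, and Tfrc turned from -0.08 to 0.03. By sample label the log2 fold changes for beef were -0.21 for Hamp, -0.17 for Id1 and -0.32 for Tfrc, and that of Ftl1 turned to 0.04. Fishmeal versus beef gave a log2 fold change of 0.29 for Fth1 (95% interval -0.07 to 0.65) and 0.14 for Slc40a1 (-0.20 to 0.48). Without mouse 35, Fth1 was at 0.20 and Ftl1 went from 0.10 to 0.26 in this comparison. Salmon filet versus beef gave 0.14 for Fth1 and 0.05 for Ftl1, and 0.03 and 0.19 without mouse 35, while Tfrc turned from -0.13 to 0.20 by sample label. No member was called between HFD groups in edgeR by sample label or without mouse 35.

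**Figure D5:**
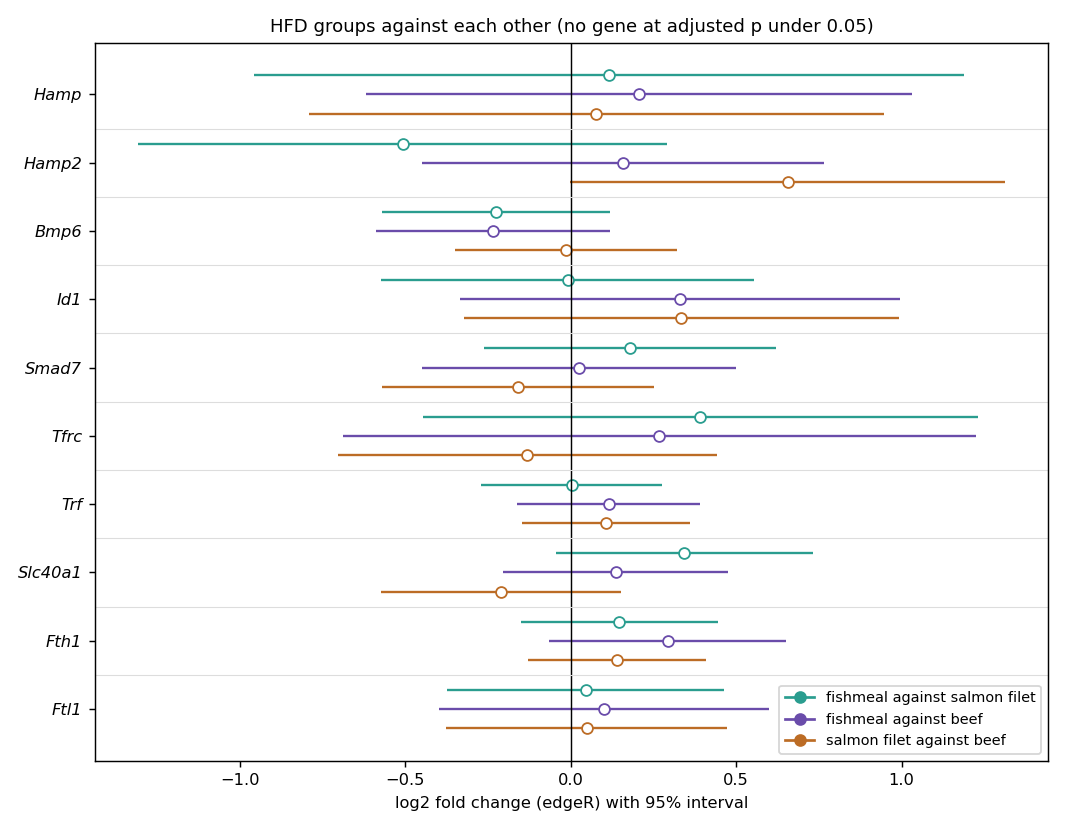
Log2 fold changes (horizontal) with 95% intervals of the 10 genes between the HFD groups, 5 mice against 5, from edgeR. Every interval includes 0, and that of Hamp2 for salmon filet versus beef begins at -0.001.

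Among 23 further genes of hepcidin control, 1 was higher and 2 were lower with HFD than with chow in edgeR, beside 4.54% and 5.21% of all genes tested. Id3, a BMP target like Id1, ranged from 16.3 to 26.9 CPM in chow-fed mice and from 4.06 to 20.2 CPM in HFD mice, all 15 of them below the chow mean. It fell by 1.01 on the log2 scale (SE 0.25, edgeR adjusted p = 0.0127), and without mouse 7 its edgeR adjusted p was 0.0558. Bmp2, a further BMP ligand of liver endothelium, fell by 0.33 (SE 0.10, edgeR adjusted p = 0.036), with an edgeR adjusted p of up to 0.196 when mouse 1, 5, 7, 20, 22 or 26 was left out. Hjv, the hepatocyte BMP co-receptor that hepcidin expression needs, was measured at 69.1 to 90.3 CPM in chow-fed mice and 83.5 to 120.1 CPM in HFD mice, all 15 of them above the chow mean. It rose by 0.35 on the log2 scale (SE 0.08, edgeR adjusted p = 0.00474), and the call held without any 1 mouse (edgeR adjusted p at most 0.0285). The median log2 fold change of the 23 genes was 0.03. In single groups, Id3 was called for fishmeal (-1.05, edgeR adjusted p = 0.0348) and beef (-1.21, edgeR adjusted p = 0.0324), and Hjv for salmon filet (0.45, edgeR adjusted p = 0.0194) and beef (0.39, edgeR adjusted p = 0.0361). By sample label Hjv kept its call for salmon filet (edgeR adjusted p = 0.0102), whereas for beef neither Hjv (0.0706) nor Id3 (0.06) passed. Of these calls, only that of Hjv for salmon filet held without any 1 mouse: Id3 lost its call for fishmeal without mouse 2, 7, 10, 13 or 20 and for beef without mouse 2, 7, 10, 31 or 40, and Hjv for beef held in 2 of 10 such fits (edgeR adjusted p at most 0.0915, 0.0855 and 0.101).

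Of 14 genes of iron uptake and plasma iron proteins, 3 were higher and 0 lower with HFD, beside the same shares of all genes. Steap4, a metalloreductase, rose by 0.69 on the log2 scale (SE 0.21, edgeR adjusted p = 0.0365), with values of 85.9 to 108.6 CPM in chow-fed and 102 to 367 CPM in HFD mice. The haemoglobin-binding protein haptoglobin, Hp, rose by 0.79 (SE 0.25, edgeR adjusted p = 0.0495), but passed in only 6 of 20 fits that left out 1 mouse (edgeR adjusted p at most 0.17). Lcn2, which binds bacterial iron carriers, rose by 2.95 (SE 0.86, edgeR adjusted p = 0.0315), from 0.899 to 12.0 CPM in chow-fed to 6.84 to 284 CPM in HFD mice, the last in the salmon filet mouse 23. All 3 can be induced in inflammation. Of 8 acute-phase genes 4 rose, Saa1, Saa2, Lcn2 and Hp, with none lower, where 4.54% of all genes were higher. Lcn2 and Hp are in both lists, so that only Saa1 and Saa2 are further genes. What part inflammation has in these results was not tested. Saa1 lost its call without mouse 1, 2, 5 or 7 and Saa2 without mouse 1, 2 or 7 (edgeR adjusted p at most 0.0886 and 0.0671), and both lost it with the clock score (edgeR adjusted p = 0.602 and 0.582). In fishmeal versus chow 3 of the 8 rose and 0 fell, where 3.38% of all genes were called. Saa1 rose by 1.815, Saa2 by 2.107 and Saa3 by 1.112 (edgeR adjusted p = 0.00829, 0.00474 and 0.00695), and held without any 1 mouse. Salmon filet called Saa2 and beef Saa1 and Saa2, in 3, 3 and 6 of 10 fits that left out a mouse. By sample label Saa2 did not pass for salmon filet (edgeR adjusted p = 0.0572). With the clock score none passed (edgeR adjusted p at least 0.264). The summed level of those 8 genes was 5359 to 8073 CPM in chow-fed mice and 6445 to 21437 CPM in HFD mice, again highest in mouse 23, in which Hamp was 588 CPM and Hamp2 160.0 CPM. Its part in the results for the hepcidin genes was not tested. Without mouse 1, 2, 5 or 7 Lcn2 lost its call (edgeR adjusted p at most 0.0956), as did Steap4 without mouse 1, 2, 5, 7, 10 or 14 (edgeR adjusted p at most 0.10). Steap4 was also called for fishmeal (0.58, edgeR adjusted p = 0.0485) and beef (0.54, edgeR adjusted p = 0.0463; 0.0613 by sample label), each in 1 of 10 fits that left out a mouse. None of these 6 pathway genes passed with the clock score (edgeR adjusted p from 0.0607 for Hjv to 0.736 for Hp).

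The list of 17 genes of haem synthesis, transport and breakdown held Alas1 but not Alas2, which is counted below as a red blood cell marker. None of these 17 was called for HFD versus chow, nor any of the 13 genes of iron regulatory proteins, iron storage and iron-sulphur clusters. Of all genes tested, 9.75% were called. In edgeR 2 and 1 genes of the 2 lists had an unadjusted p under 0.05, as 24.4% of all genes had, and the median log2 fold changes were 0.04 and 0.05. No gene of these 2 lists was called for fishmeal, salmon filet or beef against chow, beside 3.38%, 4.42% and 3.05% of all genes tested. Between HFD groups no gene of the 4 pathway lists was called, beside at most 0.17% of all genes. With lists of this size and these shares, 0 called genes cannot be read as particular to them. Of 5 red blood cell markers, Alas2 rose by 0.71 (SE 0.16, edgeR adjusted p = 0.00602), while the 4 globin genes did not pass. The Alas2 call held without any 1 mouse (edgeR adjusted p at most 0.02835). With the clock score Alas2 had an estimate of 0.75 and an edgeR adjusted p of 0.0827. It was also called for fishmeal (0.737, edgeR adjusted p = 0.01955) and beef (0.0389 by sample label), beside 3.38% and 3.05% of all genes. These calls held in 8 and 3 of 10 fits that left out a mouse. Salmon filet called none of the 5 markers. The summed level of the 5 markers was 73.6 to 212 CPM in chow-fed and 84.5 to 482 CPM in HFD mice.

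The last question was whether mice with more Hamp RNA than the mean of their group also had more RNA of the other members. Deviations from the group means were correlated over the 20 mice for 12 pairs of genes, with permutation within groups and Benjamini-Hochberg adjustment over the 12. No pair passed. The closest was Id1 with Hamp, with a Pearson r of 0.578 (permutation p = 0.00701, adjusted p = 0.0841) and a Spearman rho of 0.608 (permutation p = 0.00881, adjusted p = 0.106). Leaving out the 2 mice farthest from the median of Id1 (14 and 32), r was 0.452 (permutation p = 0.0839). With each mouse left out in turn r ranged from 0.498 to 0.663, and the pair passed in 3 of 20 such runs, without mouse 1, 10 or 12 (permutation, adjusted p from 0.0191 to 0.264 over the 20). Id1 with Smad7 had an r of 0.572 (permutation p = 0.0249, adjusted p = 0.149) and a rho of 0.549 (permutation p = 0.0302, adjusted p = 0.181), and without the 2 mice farthest from the median an r of 0.378 (permutation p = 0.129). Bmp6 had an r of -0.167 with Hamp (permutation p = 0.532, adjusted p = 0.562) and a rho of -0.173 (permutation p = 0.508, adjusted p = 0.609). Hamp2 had an r of 0.248 with Hamp (permutation p = 0.407, adjusted p = 0.524) and a rho of 0.349 (permutation p = 0.182, adjusted p = 0.469). The pooled relation of Id1 and Hamp was not recomputed within single groups, which hold 5 mice each.

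The genes whose deviations were most like those of Hamp over the 20 libraries, among 11558 protein-coding genes with a mean of at least 1 CPM, were Fam192a (Pearson r 0.827), Spsb4 (0.804), Cml1 (0.797), 1700021F05Rik (0.789) and Mrpl46 (0.761). These are the top of a ranked list and are given with no test.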

How the data were processed

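Liver RNA of 20 mice (1 library each) was sequenced after strand-specific TruSeq mRNA preparation. The authors used BBDuk for trimming, HISAT2 for alignment and featureCounts 1.4.6-p1 for the read count of each gene, and deposited the raw counts of 55487 identifiers and a table of TPM, which adds to 1e+06 per library. Their text names a human build, GRCh38, for these mouse libraries. Positions are given on GRCm38 (GENCODE M21). Settings for strand and for reads that fit several genes are not given in the sources used here.

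Groups followed the column name endings, with the sample labels as an alternative for mouse 31. Counts were tested with edgeR 4.0.16 in R 4.3.3 (TMM, filterByExpr at a minimum count of 10, two-sided quasi-likelihood F-tests, Benjamini-Hochberg over all genes tested, called at an adjusted p under 0.05). CPM use TMM factors, and log2 CPM a prior count of 2. Alternatives were DESeq2 1.42.0, limma 3.58.1 on log2(TPM + 1) of the deposited TPM (genes with a mean of at least 0.5), DESeq2 size factors, no filter, all 4 groups in 1 fit, the clock score as covariate, summed near-identical copies, the label grouping, and each mouse left out. Correlations used 100000 permutations within groups, two-sided. Near-identical transcripts were sought with blastn 2.17.0 (at least 90% identity over 100 bases).

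The fits and the permutation test were tested on simulated data. Each of 40 same-group library pairs exceeded sampling noise (chi-square per gene of 42.5 to 577, 12879 genes). Counting error is small at 42526234 to 70266136 reads per library, so the spread between mice limits precision. Named genes are the 10 members, each gene of the pathway and marker lists called in a comparison, and the 5 genes most like Hamp. Members and lists were chosen with earlier results of these data known.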

Additional observations from a re-analysis of the deposited data

Results flagged for a closer look

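Each of the 10 genes was examined in each of the 4 groups for a mouse far from the other 4, by the gap to its nearest neighbour as a share of the group's range (Dixon's critical value 0.71 for 5 mice). Of 40 such groups 3 held one, where chance flags about 1 in 20. Slc40a1 was 214 CPM in the chow-fed mouse 1 and 125 to 132 CPM in the other chow-fed mice. Fth1 was also highest in mouse 1 of the chow group, at 729 CPM against 456 to 524 CPM, and the same mouse had the lowest Ftl1 of all, 1110.1 CPM. Ftl1 was 2471 CPM in the salmon filet mouse 25 and 1630.0 to 1762 CPM in the other salmon filet mice. None of the 3 genes was called in any comparison, with or without these mice.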

How the results depend on the processing

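The number of members called changed with the processing in each comparison with chow. For HFD versus chow, 3 became 4 with DESeq2 or limma on TPM and 1 with the clock score. Fishmeal versus chow, with 1 in the report, gave 2 with DESeq2 and 0 with the clock score. For salmon filet versus chow, 4 became 5 with DESeq2, 0 with limma on TPM, 2 with all 4 groups in 1 fit and 0 with the clock score. Without the filter on low counts Bmp6 lost its call there (edgeR adjusted p = 0.0548), whereas Hamp2, Smad7 and Tfrc kept theirs. Beef versus chow went from 0 to 3 with DESeq2, 1 without the filter on low counts, 1 with limma on TPM and 2 with all 4 groups in 1 fit. Leaving out 1 mouse gave 2 to 4 members for HFD versus chow, 1 to 1 for fishmeal, 0 to 2 for salmon filet and 0 to 1 for beef versus chow, and 0 to 1 correlated pairs, the pair being Id1 with Hamp. Between HFD groups 0 members were called in every alternative run. The share of all genes called also changed with the method. For beef versus chow it was 3.05% in edgeR, 6.42% in DESeq2 and 2.08% in limma. For most of the other alternative fits that share is not given here, so these counts cannot be read as particular to the iron genes. The cause of these differences was not tested.

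Apart from fits that left out a mouse, the single-gene estimates kept direction and side of the threshold in 681 of 752 cases. Calls were lost in 15 and gained in 12, and in 44 an estimate that was never called changed sign. No called estimate changed direction. No paired analysis was possible because the mouse numbers are not shared between groups. With 5 mice a group, log2 fold changes of Hamp and Hamp2 between HFD groups carried 95% intervals of up to 1.07 in either direction.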
